A study of Mus musculus with 18 samples.

Results

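The comparison described here is that of *Ccny* knockout (KO) mice with wild-type (WT) mice after reversal learning. It takes 6 of the 18 hippocampal RNA libraries of the series, chosen by their labels: 3 from KO mice (KO_RL) and 3 from WT mice (WT_RL), with all 15329 listed genes. Both groups are male C57BL/6J mice of 8 to 10 weeks, and both had first been trained to find a hidden platform in the Morris water maze (original learning) and were then trained again after the platform had been moved (reversal learning). KO and WT mice without training (KO_Basal, WT_Basal) and after original learning alone (KO_OL, WT_OL), 3 mice in each of these groups, were set against the reversal learning mice. They also entered the estimate of each gene's spread, and so the standard errors, intervals and p-values given here. The design of the *Ccny* allele, the litters and the time from the last trial to dissection are not given in the sources used here.

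Cyclin Y is a membrane-anchored cyclin that binds and activates CDK14 and CDK16 and takes part in Wnt co-receptor phosphorylation, and in neurons it is found at the postsynapse, where it restrains the strengthening of excitatory synapses. Reversal learning asks an animal to give up a learned location for another one, and the hippocampus is among the regions that it draws on. Training in water also brings physical exertion and stress, to which hippocampal cells respond with immediate early genes and with genes induced through the glucocorticoid receptor.

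Between 33201129 and 37915576 reads fell on the listed genes in the 6 libraries, so that 1 read was worth 0.0274 to 0.0305 CPM, the normalised read count in which the levels are given here. The markers of the hippocampus were present in all 6: the summed level of 10 CA1 pyramidal neuron markers ran from 689 to 888 CPM in WT_RL and from 726 to 954 CPM in KO_RL mice, and that of 15 dentate granule neuron markers from 1235 to 1384 CPM and from 1140 to 1461 CPM. The markers of neighbouring tissue set some libraries apart. The summed level of 13 striatal markers was 1060 and 765 CPM in KO_RL replicates 1 and 3, while KO_RL replicate 2 was at 218 CPM and the WT_RL mice lay between 227 and 286 CPM. For 13 thalamic and habenular markers the sums were 246 and 331 CPM in WT_RL replicates 2 and 3, whereas WT_RL replicate 1 was at 182 CPM and the KO_RL mice ranged from 180 to 191 CPM. For 24 choroid plexus markers they were 309 CPM, 1560 CPM and 13577 CPM in WT_RL replicates 1 to 3 and 2331 to 8287 CPM in the KO_RL mice. In bulk tissue, a smaller share of cells of a type and less RNA per cell cannot be told apart.

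**Figure D1:**
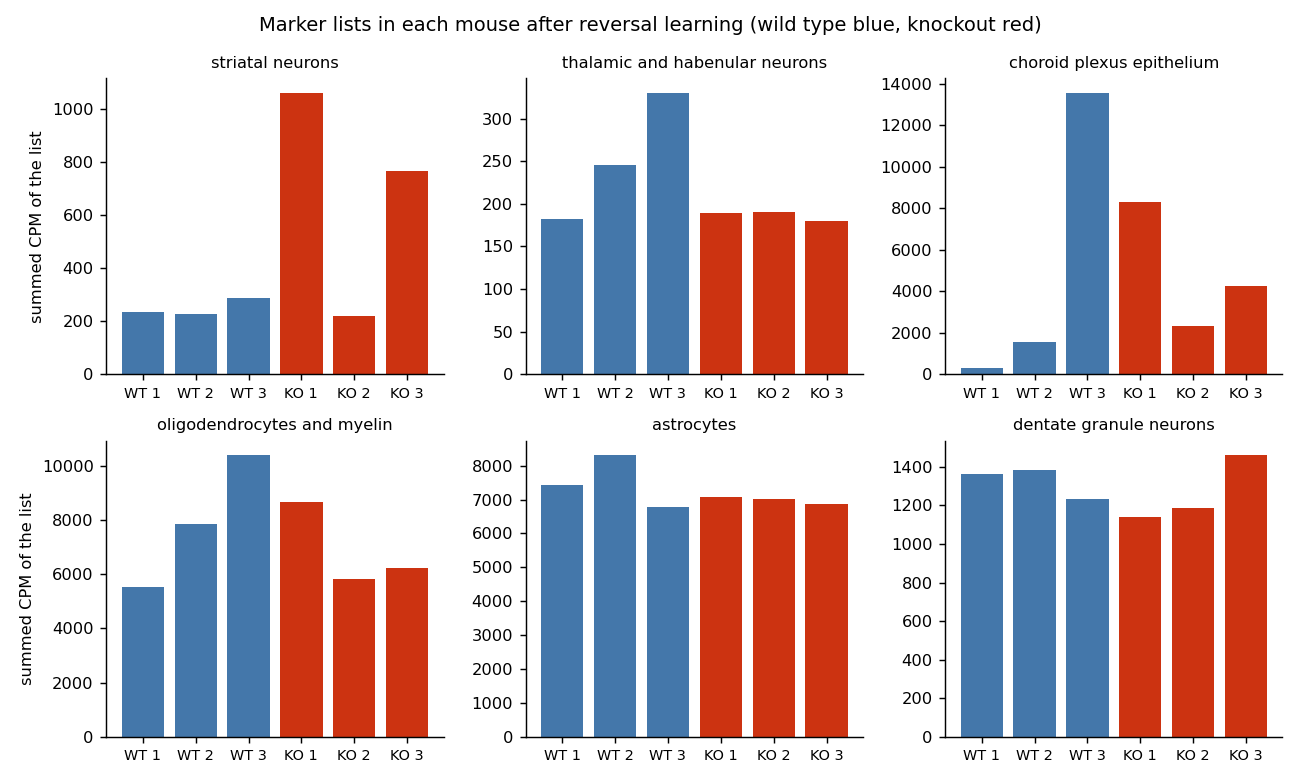
Summed CPM of 6 marker lists in each of the 6 mice after reversal learning (y axis, from 0; 1 bar per mouse, WT blue, KO red). Striatal markers stand out in KO replicates 1 and 3, thalamic and habenular markers in WT replicates 2 and 3, and choroid plexus markers run from 309 CPM in WT replicate 1 to 13577 CPM in WT replicate 3, while the dentate granule markers stay between 1140 and 1461 CPM.

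The targeted gene was checked first. *Ccny* (chr18:9312304-9450154, mm10, minus strand) was at 148, 128 and 107 CPM in the 3 WT_RL mice and at 76.2, 84.3 and 78.6 CPM in the 3 KO_RL mice. The lowest WT mouse lay above the highest KO mouse, and the KO mean of 79.7 ± 4.15 CPM (SD, n = 3) was 62.4% of the WT mean of 128 ± 20.8 CPM (SD, n = 3). The log2 difference was -0.66 (SE 0.11, 95% interval -0.89 to -0.44, adjusted p = 0.0821 from limma), and -0.75 both without training (adjusted p = 0.0121) and after original learning (adjusted p = 0.0180). The KO mice thus still held *Ccny* reads, and a count over the whole gene does not show from which exons they came. WT_RL replicate 3 was the WT mouse nearest to the KO mice. Leaving it out gave -0.78 (adjusted p = 0.0121), and leaving out WT_RL replicate 1 gave -0.55 (adjusted p = 0.0279). Over all alternatives the adjusted p ran from 0.000683 to 0.994, where the lowest came from library weights that did not converge.

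Of the 6 listed partners and relatives of cyclin Y, none had an unadjusted p under 0.05. *Ccnyl1*, the gene of the cyclin Y-like protein, was at 8.67, 9.42 and 11.2 CPM in WT_RL and at 9.95, 9.50 and 9.81 CPM in KO_RL mice, with a log2 difference of 0.01 (SE 0.11). The kinase genes *Cdk14*, with -0.08 (SE 0.10), and *Cdk16*, with 0.00 (SE 0.11), also had overlapping groups. *Cdk18* was lower in each KO_RL mouse (21.8 to 22.7 CPM) than in any WT_RL mouse (23.0 to 28.2 CPM), with a log2 difference of -0.20 (SE 0.14) that did not pass the test.

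Across all genes, 0 of 15329 (0.0%) had an adjusted p under 0.05 by limma, where 756 (4.93%) had an unadjusted p under 0.05, and voom on the recovered reads also called 0. By the criteria of a fold change over 1.5 with an unadjusted p under 0.05, 100 genes (0.652%) differed, of which 37 (0.241%) were higher and 63 (0.411%) lower in KO_RL mice, where 160 genes (1.04%) lay past 1.5-fold at any p. The groups did not overlap for 611 genes (3.99%) that were higher and 643 (4.19%) that were lower in KO_RL mice. The log2 difference was positive for 49.9% and negative for 50.1% of all genes with a median of -0.00026, and the median standard error was 0.10 among the 11005 genes with a mean log2 value of at least 3. These counts depended on single mice. Without WT_RL replicate 1, 59 genes passed an adjusted p under 0.05 (6 higher, 53 lower in KO_RL), without WT_RL replicate 3, 1 gene (*Ccny*), without KO_RL replicate 2, 2 genes (*2810417H13Rik* and *Clspn*, both of DNA replication), and without each of the other 3 mice, 0 genes.

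**Figure D2:**
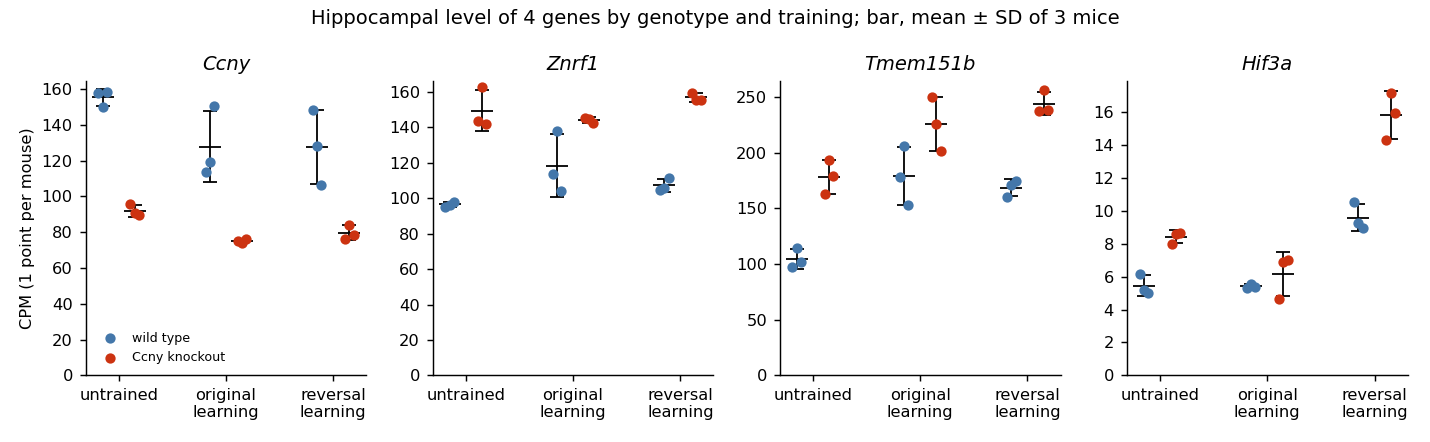
CPM of *Ccny*, *Znrf1*, *Tmem151b* and *Hif3a* (y axes, from 0) in each mouse without training, after original learning and after reversal learning (x axis), with WT mice in blue, KO mice in red and black bars for the mean ± SD of 3 mice. After reversal learning all 3 KO mice lie below all WT mice for *Ccny* and above them for the other 3 genes.

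*Znrf1*, *Tmem151b* and *Hif3a* had, with *Ccny*, the 4 smallest p-values of all genes. Both *Znrf1* and *Tmem151b* lay under the 1.5-fold limit and were chosen after their values were seen. *Znrf1* (chr8:111536097-111626030), which encodes an E3 ubiquitin ligase, was at 104, 106 and 111 CPM in WT_RL mice and at 160, 156 and 155 CPM in KO_RL mice. Its log2 difference was 0.55 (SE 0.08, adjusted p = 0.0821). Over the alternatives the adjusted p ran from 0.000683, with library weights that did not converge, to 0.759. The *Znrf1* level of 157 ± 2.37 CPM in KO_RL (SD, n = 3) was 146% of that in WT_RL. *Tmem151b* (chr17:45541952-45549677), the gene of a transmembrane protein, was at 160, 171 and 175 CPM in WT_RL mice and at 237, 256 and 238 CPM in KO_RL mice, a log2 difference of 0.53 (SE 0.10, adjusted p = 0.322). In untrained mice these 2 genes and *Ccny* were the 3 (0.0196%) with an adjusted p under 0.05, with log2 differences of 0.62 for *Znrf1* and 0.77 for *Tmem151b* (adjusted p = 0.0109 each). The differences share no library between these comparisons. Each gene's spread was estimated over all 18 libraries at once, so the p-values of the states are not independent. Exons of *Znrf1* overlap those of *Ldhd* on the opposite strand, and exons of *Tmem151b* those of *Tcte1*. The labels name a stranded kit and the study's methods one whose name does not say so, and whether the counting used strand is not given in the sources used here, so reads of such pairs may be mixed. Among the genes described further on, this holds also for *Cdc42ep1* (with *Lgals2*), *Sp9* (with *Cir1*), *Mab21l2* (with *Lrba*), *Nrn1* (with *Fars2*), *Kcnh3* (with *Mcrs1*) and *Shox2* (with *Rsrc1*), and for *Lef1*, *Ccnd2*, *Cdk18*, *Gata3*, *Irx3*, *Sfrp2*, *Malat1* and *Meg3*, which overlap less known transcripts.

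*Hif3a* (chr7:17031507-17062427), the gene of an alpha subunit of the hypoxia-inducible factors, was at 10.5, 9.27 and 8.93 CPM in WT_RL mice and at 14.3, 17.2 and 15.9 CPM in KO_RL mice. The log2 difference was 0.66 (SE 0.12, adjusted p = 0.280). It was 0.55 (SE 0.12) in untrained mice and 0.14 (SE 0.12) after original learning, and the difference between reversal and original learning in the genotype effect, 0.52, did not pass the test (adjusted p = 0.581). In the other 2 states no WT mouse was above 6.16 CPM and no KO mouse above 8.66 CPM, so that in both genotypes every mouse after reversal learning lay above those of the other states, a difference that was not tested.

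Genes separated in the same direction in all 3 states were few. For 15 of 15329 genes (0.0979%), 7 higher and 8 lower in KO, the 3 KO mice lay on the same side of the 3 WT mice without training, after original learning and after reversal learning. In single states such genes made up 7.05% (higher) and 7.67% (lower) of all genes without training and 7.61% and 8.89% after original learning. The 15 were found after the values were seen. *Clec14a*, the gene of an endothelial membrane glycoprotein, had log2 differences of -0.55, -0.43 and -0.48 after reversal learning, without training and after original learning. *Trim59*, the gene of a tripartite motif protein, had -0.52, -0.53 and -0.45, and *Ptpn1*, the gene of the tyrosine phosphatase PTP1B, had 0.30, 0.23 and 0.27. *Hs3st1*, which encodes a heparan sulfate sulfotransferase, had -0.23, -0.30 and -0.26. *Znrf1* and *Ccny* were also among the 15, and *Tmem151b* was not, since 1 KO_OL mouse lay within the WT_OL range.

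The 12 named genes that were lower in KO_RL mice were *Ccny*, *Vamp1*, *Kcng4*, *Cdc42ep1*, *Lef1*, *Wnt2b*, *Irx1*, *Heyl*, *Dmbx1*, *Mab21l2*, *Slc6a11* and *Slc17a6*. None passed an adjusted p under 0.05, and for *Vamp1*, *Kcng4*, *Lef1*, *Irx1*, *Dmbx1*, *Mab21l2*, *Slc6a11* and *Slc17a6* the high WT_RL values were those of replicates 2 and 3. *Vamp1*, which encodes synaptobrevin 1 of synaptic vesicles, was at 145, 212 and 247 CPM in WT_RL mice and at 112, 135 and 118 CPM in KO_RL mice (log2 difference -0.69, SE 0.14, adjusted p = 0.322). *Slc17a6*, the gene of the vesicular glutamate transporter VGLUT2 of subcortical neurons, was at 28.4, 61.0 and 93.9 CPM in WT_RL mice and at 19.1, 26.7 and 17.6 CPM in KO_RL mice (-1.35, SE 0.38). *Slc6a11*, the gene of the GABA transporter GAT3, was at 174, 339 and 350 CPM in WT_RL mice and at 164, 171 and 169 CPM in KO_RL mice (-0.71, SE 0.20). In each of these, WT_RL replicate 1 lay closer to the KO_RL mice than to the other WT_RL mice.

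The same held for genes known from the developing midbrain and diencephalon. *Mab21l2* was at 0.0823, 2.54 and 8.75 CPM in WT_RL mice and at 0.0607, 0 and 0.0302 CPM in KO_RL mice. *Dmbx1* was at 0.137, 1.64 and 3.94 CPM in WT_RL and between 0.0303 and 0.122 CPM in KO_RL mice, and *Irx1* at 0.329, 2.09 and 3.39 CPM and between 0.211 and 0.214 CPM. *Lef1*, a transcription factor of the Wnt pathway that is also abundant in the thalamus, was at 4.75, 8.51 and 10.7 CPM in WT_RL mice and at 4.64, 3.70 and 3.47 CPM in KO_RL mice. Of the 13 thalamic and habenular markers, 4 had an unadjusted p under 0.05 with lower values in KO_RL mice (background 2.46%) and 0 with higher values, and the median was -0.14. *Pou4f1*, which defines the medial habenula, was at 0, 2.23 and 4.39 CPM in WT_RL mice and at most 0.0910 CPM in KO_RL mice. With WT_RL replicate 1 as the lone WT_RL mouse the median of the list was 0.08, with 8 of 13 genes positive. The mice left out there were picked by *Slc17a6*, which is on this list, so that change is not a test. Without WT_RL replicate 1 the median was -0.29, with 6 genes lower at an unadjusted p under 0.05.

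Leaving out WT_RL replicate 1 brought the same kind of gene past the test. Of the 53 genes then lower in KO_RL, WT_RL replicate 2 or 3 held the highest of the 6 values for 52. WT_RL replicate 1 lay at or below the highest KO_RL mouse for 37. Calling genes without WT_RL replicate 1 favours both outcomes, so these counts describe the calls and are not a test. The 53 genes included *Pax7*, *Tfap2b*, *Shox2*, *Gata3*, *Sox14*, *Barhl1*, *Irx2* and *Irx3*, all transcription factor genes of the embryonic midbrain or diencephalon and named after their values were seen. *Tfap2b* was at 0.192 CPM in WT_RL replicate 1, at 6.50 and 14.0 CPM in WT_RL replicates 2 and 3 and between 0.152 and 0.272 CPM in KO_RL mice. *Gata3* was at 0.0274, 2.23 and 4.36 CPM in WT_RL mice and at most 0.151 CPM in KO_RL mice.

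*Wnt2b*, the gene of a secreted Wnt ligand, was at 1.10, 1.84 and 2.48 CPM in WT_RL mice and at 0.698, 0.214 and 0.453 CPM in KO_RL mice (log2 difference -0.93, SE 0.24). *Sfrp2*, the gene of a secreted Wnt antagonist, was at 1.56 to 2.01 CPM in WT_RL mice against 0.941, 0.977 and 1.15 CPM (-0.50, SE 0.13). *Cdc42ep1*, an effector of the GTPase Cdc42, was at 19.1, 26.3 and 30.9 CPM in WT_RL mice and at 19.0, 13.1 and 13.2 CPM in KO_RL mice (-0.71, SE 0.15), where WT_RL replicate 1 lay next to the highest KO mouse and replicates 2 and 3 were high. *Heyl*, a target of Notch signalling in vessels, was at 3.92 to 6.36 CPM in WT_RL and at 2.69 to 3.21 CPM in KO_RL mice (-0.59, SE 0.16). Of the 26 genes listed for Wnt co-receptors and the beta-catenin pathway, 3 (*Lef1*, *Sfrp2* and *Tcf7l2*) had an unadjusted p under 0.05 with lower values in KO_RL mice (background 2.46%) and 0 with higher values, and the median of the list was -0.01. *Tcf7l2*, a transcription factor gene of the pathway, was at 3.54 and 11.6 CPM in WT_RL replicates 1 and 2, higher still in replicate 3, and at 5.25, 3.73 and 4.62 CPM in KO_RL mice, so that it and *Lef1* were high in the same 2 WT_RL mice as the thalamic markers.

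**Figure D3:**
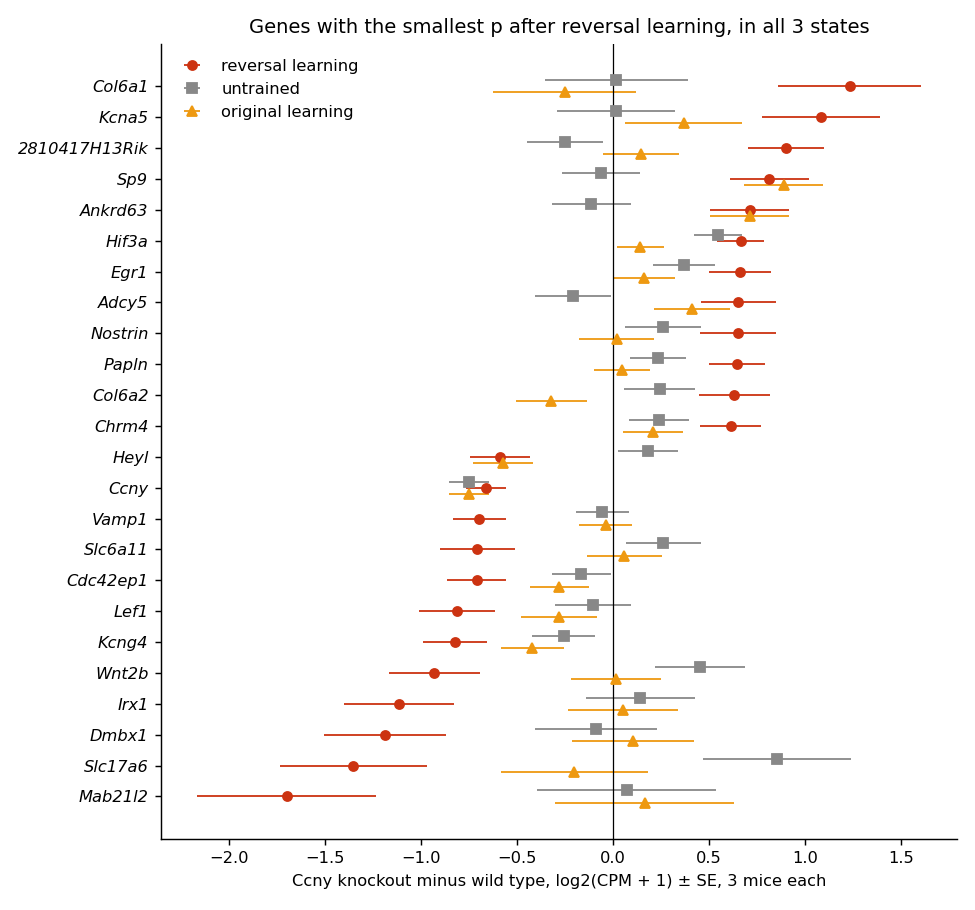
Log2 difference KO minus WT (x axis, on the log2(CPM + 1) scale, ± SE, 3 mice each) of the 24 genes with the smallest p among those past 1.5-fold after reversal learning, with the same difference in untrained mice and after original learning. *Ccny* lies between -0.75 and -0.66 in all 3 states and *Slc17a6* has opposite signs after reversal learning (-1.35) and without training (0.85).

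The 12 named genes that were higher in KO_RL mice were *Hif3a*, *2810417H13Rik*, *Papln*, *Egr1*, *Sp9*, *Chrm4*, *Kcna5*, *Ankrd63*, *Col6a2*, *Adcy5*, *Col6a1* and *Nostrin*, with 0 past an adjusted p under 0.05. Several are genes of striatal neurons. *Adcy5*, the main adenylyl cyclase of the striatum, was at 136, 121 and 130 CPM in WT_RL mice and at 263, 147 and 218 CPM in KO_RL mice (log2 difference 0.65, SE 0.20). *Sp9*, a transcription factor of striatal projection neurons, was at 2.83, 2.54 and 2.63 CPM against 6.83, 4.83 and 4.89 CPM (0.82, SE 0.20). *Chrm4*, the gene of the muscarinic receptor M4, was at 20.5, 19.2 and 11.8 CPM against 27.5, 24.9 and 25.9 CPM (0.61, SE 0.16). For *Adcy5*, KO_RL replicates 1 and 3 were the high mice, while *Chrm4* was nearly even over the 3 KO_RL mice.

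All 13 striatal markers were past 1.5-fold with higher means in KO_RL, with a list median of 1.10, and 5 of them had an unadjusted p under 0.05 (background 2.47%). *Drd1*, the dopamine D1 receptor gene, was at 5.79, 5.65 and 4.81 CPM in WT_RL mice and at 35.6, 6.78 and 25.2 CPM in KO_RL mice. *Adora2a*, an adenosine receptor gene of striatal neurons, was at 1.67, 2.15 and 1.97 CPM in WT_RL mice and at 29.9, 1.62 and 20.5 CPM in KO_RL mice. For both genes KO_RL replicate 2 lay near the WT_RL range, and replicates 1 and 3 lay far above it. Without KO_RL replicates 1 and 3 the median of the list was -0.21. Those mice were picked by the same markers after the values were seen, so this fall was fixed in advance and is not a test.

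*Col6a1*, which encodes a chain of collagen VI, was at 20.2, 13.7 and 9.69 CPM in WT_RL mice and at 22.9, 52.2 and 32.9 CPM in KO_RL mice (log2 difference 1.23, SE 0.37), and *Col6a2*, the gene of a second chain, at 6.78, 8.74 and 5.42 CPM against 10.2, 12.6 and 10.9 CPM (0.63, SE 0.19). *Papln*, the gene of the matrix protein papilin, was at 0.549, 0.735 and 0.545 CPM against 1.67, 1.19 and 1.72 CPM (0.65, SE 0.15). The collagen genes were highest in KO_RL replicate 2 and *Papln* lowest there. Of 12 meningeal fibroblast markers, 0 had an unadjusted p under 0.05 in either direction and the median was -0.01.

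*2810417H13Rik*, the gene of a factor that binds the replication clamp PCNA, was at 0.302, 0.198 and 0.303 CPM in WT_RL mice and at 1.64, 0.641 and 2.05 CPM in KO_RL mice (log2 difference 0.90, SE 0.20). The proliferation gene *Mki67* was at 1.56, 3.36 and 2.66 CPM against 5.79, 2.44 and 8.27 CPM, and *Top2a*, the gene of topoisomerase II alpha, at 2.33, 3.20 and 3.33 CPM against 7.04, 2.78 and 9.24 CPM. In these 3 genes KO_RL replicates 1 and 3 were high, the same 2 mice that were high in striatal markers. *Dcx*, the doublecortin gene of immature neurons, was at no more than 17.9 CPM in WT_RL mice and at 19.4, 23.1 and 28.8 CPM in KO_RL mice, and *Ccnd2*, the gene of cyclin D2 of dividing neural progenitors, at 114, 107 and 115 CPM and at 153, 137 and 134 CPM. These last 2 genes did not overlap between the groups. Of the 15 genes listed for immature neurons and neurogenesis, 5 had an unadjusted p under 0.05 with higher values in KO_RL mice (background 2.47%) and 0 with lower values, with a median of 0.30. Without WT_RL replicate 1 the median was 0.15 with 2 such genes, and without KO_RL replicate 3 it was 0.08 with 1. Without KO_RL replicates 1 and 3 the median was -0.06 and 1 gene had such a p. The part of striatal tissue in these values was not tested.

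Among the genes that neuronal activity induces, *Egr1*, *Egr4* and *Egr3* had higher means in KO_RL mice at an unadjusted p under 0.05. *Egr1* was at 117, 103 and 130 CPM in WT_RL mice and at 182, 166 and 206 CPM in KO_RL mice, a log2 difference of 0.66 (SE 0.16, adjusted p = 0.555) with every KO mouse above every WT mouse. *Egr4* was at 20.6, 17.8 and 18.5 CPM against 27.7, 24.3 and 30.1 CPM (0.50, SE 0.12, adjusted p = 0.555), and *Egr3* at 114, 98.4 and 104 CPM against 112, 119 and 145 CPM (0.24, SE 0.10). These genes encode zinc finger transcription factors that follow synaptic activity. Unlike *Egr1* and *Egr4*, *Egr3* overlapped between the groups. Of the 13 genes listed as Egr, Nr4a and Npas4 factors, 12 had a positive difference (49.9% of all genes did), 3 had an unadjusted p under 0.05 with higher values (background 2.47%) and 0 with lower values, and the median was 0.24, with 0.12 to 0.30 over the alternatives. Without KO_RL replicates 1 and 3 the median was 0.14. Without KO_RL replicate 3 or WT_RL replicate 3, 2 genes were higher at that p. In untrained mice the median was 0.24 with 4 genes higher at an unadjusted p under 0.05 (background 2.13%). After original learning it was -0.05 with 2 higher (background 9.96%) and 2 lower (background 8.07%).

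*Fos* was at 14.8, 13.8 and 16.4 CPM in WT_RL mice and at 12.7, 15.3 and 16.7 CPM in KO_RL mice, a log2 difference of -0.01 (SE 0.22) with overlapping groups. Of the 7 AP-1 genes 0 had an unadjusted p under 0.05. Their median was 0.15, with 6 positive members (49.9% of all genes were positive) and *Fos* as the 1 negative member. *Homer1*, which encodes a scaffold of the postsynaptic density and an activity-induced short form, was at 117, 85.2 and 101 CPM against 117, 138 and 132 CPM (0.36, SE 0.12). *Nrn1*, the gene of the activity-induced ligand neuritin, was lower, at 260, 273 and 251 CPM against 204, 214 and 242 CPM (-0.25, SE 0.09). Over the 17 activity-induced synaptic effectors the median was 0.04, with 1 higher (background 2.47%) and 1 lower (background 2.46%) at an unadjusted p under 0.05.

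Among the genes that glucocorticoids induce, 6 of 16 had an unadjusted p under 0.05 with higher values (background 2.47%) and 0 with lower values. Those 6 were *Ddit4*, *Per1*, *Tsc22d3*, *Nfkbia*, *Pdk4* and *Zbtb16*, none with an adjusted p under 0.05. *Ddit4*, which encodes an inhibitor of mTORC1 signalling, was at 62.8, 65.6 and 68.2 CPM in WT_RL mice and at 83.3, 74.5 and 85.7 CPM in KO_RL mice (log2 difference 0.30, SE 0.07, adjusted p = 0.555). *Tsc22d3*, the gene of the glucocorticoid-induced leucine zipper GILZ, was at 101, 108 and 113 CPM against 135, 134 and 131 CPM (0.32, SE 0.10). *Nfkbia*, the gene of the NF-kappaB inhibitor, was at 24.8, 24.0 and 28.6 CPM against 37.3, 29.4 and 33.5 CPM (0.36, SE 0.12). For these 3 genes the KO mice all lay above the 3 WT mice. Of the 16 genes, 11 had a positive difference (49.9% of all genes did) and 5 a negative one, the lowest at -0.46. Without WT_RL replicate 2, 5 genes were higher and 1 lower at an unadjusted p under 0.05. The median of the 16 genes was 0.28, with 0.19 to 0.30 over all alternatives. With KO_RL replicate 2 as the lone KO_RL mouse it was 0.19, with 2 genes under that p. In untrained mice the median was 0.14 with 4 genes higher at an unadjusted p under 0.05 (background 2.13%). After original learning the median was 0.04 with 1 higher (background 9.96%) and 1 lower (background 8.07%).

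*Per1*, which is on both the glucocorticoid and the clock list and encodes a core repressor of the circadian clock, was at 79.7, 72.8 and 82.9 CPM in WT_RL mice and at 98.2, 98.1 and 93.5 CPM in KO_RL mice (log2 difference 0.30, SE 0.08, adjusted p = 0.578). *Per2* was at 48.3, 46.5 and 57.2 CPM against 65.7, 65.5 and 64.4 CPM (0.36, SE 0.10), and *Npas2*, a partner of BMAL1, at 28.3, 26.4 and 19.1 CPM against 29.6, 34.0 and 31.1 CPM (0.37, SE 0.11). All 3 separated the groups. *Arntl*, the gene of BMAL1 itself, was at 31.4, 31.4 and 27.2 CPM against 26.6, 26.8 and 27.5 CPM (-0.14, SE 0.10), with overlap. Of the 19 clock genes, 3 were higher (background 2.47%) and 1 lower (background 2.46%) at an unadjusted p under 0.05, and the median was 0.05, which was -0.01 without KO_RL replicate 1. The hour of dissection of each mouse is not given in the sources used here.

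The promoters of *Egr4* and *Per1* are shown as examples of genes that were higher in every KO_RL mouse and that synaptic activity induces. Others, such as *Egr1*, met both conditions too and are not shown. Each run is the stretch of 250 bases before a RefSeq transcript start on GRCm38.p6, written 5′ to 3′ along the gene, with capitals for TGACG on either strand (the core of the cAMP response element) and for CACGTG (the E-box that clock factors bind). The *Egr4* window is chr6:85513590-85513839 on the minus strand, and the *Per1* windows, for 2 transcript starts, are chr11:69098699-69098948 and chr11:69099902-69100151 on the plus strand.
Egr4: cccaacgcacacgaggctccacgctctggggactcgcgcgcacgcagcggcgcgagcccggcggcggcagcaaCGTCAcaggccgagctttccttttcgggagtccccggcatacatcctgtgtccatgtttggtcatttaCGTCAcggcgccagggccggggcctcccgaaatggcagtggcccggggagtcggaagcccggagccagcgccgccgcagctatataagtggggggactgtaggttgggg
Per1 start 1: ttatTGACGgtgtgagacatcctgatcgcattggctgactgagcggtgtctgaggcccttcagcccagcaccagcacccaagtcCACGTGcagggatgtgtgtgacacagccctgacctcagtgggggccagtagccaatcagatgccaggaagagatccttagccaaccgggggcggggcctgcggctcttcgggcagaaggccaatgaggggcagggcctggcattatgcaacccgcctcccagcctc
Per1 start 2: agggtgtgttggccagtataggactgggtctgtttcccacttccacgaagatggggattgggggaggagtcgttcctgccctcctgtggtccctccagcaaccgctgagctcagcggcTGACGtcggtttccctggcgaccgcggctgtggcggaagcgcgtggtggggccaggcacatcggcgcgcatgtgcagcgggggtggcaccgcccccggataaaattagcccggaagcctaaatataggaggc
The *Egr4* window holds TGACG at 2 places, both on the reverse strand, with their first printed bases 177 and 109 bases before the start. TGACG at 2 or more places, on either strand and with overlapping matches counted, occurs in 3.90% of the 32851 windows of this length. At least 1 TGACG occurs in 17.8%. The first *Per1* window holds TGACG 246 bases and CACGTG 166 bases before the start, and the second holds TGACG 132 bases before the start. CACGTG occurs in 6.02% of all windows. These matches describe letters only, and the expression values do not say whether a factor bound there.

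Actin remodelling shapes dendritic spines and is controlled by small GTPases and the kinases and nucleators that they activate. Of 55 genes of the small GTPases, PAK and ROCK kinases, cofilin and its kinases and phosphatases, the Arp2/3 and WAVE complexes and the actins, 2 differed at an unadjusted p under 0.05, where 4.93% of all genes did, and 0 after adjustment, and the median was -0.03. One was *Rnd1*, the gene of an atypical small GTPase, with 10.1, 17.5 and 14.0 CPM in WT_RL mice and 8.22, 9.84 and 10.9 CPM in KO_RL mice (log2 difference -0.46, SE 0.17). The other was *Wasf2*, the gene of the WAVE2 protein, with 19.5, 21.6 and 28.2 CPM against 29.0, 24.3 and 28.6 CPM (0.24, SE 0.11). Both overlapped between the groups. For 50 of the 55 genes the 95% interval of the difference lay within 1.5-fold in both directions.

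*Actb*, the beta-actin gene, was at 1114, 1186 and 1026 CPM in WT_RL mice and at 1132, 1030 and 1168 CPM in KO_RL mice, a log2 difference of 0.00 with a 95% interval of -0.19 to 0.19. *Cdc42* had a log2 difference of -0.04 (interval -0.18 to 0.10) and *Rac3* one of 0.04 (-0.23 to 0.32). *Pak3*, a kinase that Rac and Cdc42 activate, was at 166, 118 and 138 CPM against 128, 180 and 143 CPM (0.10, interval -0.31 to 0.50). *Limk1*, whose product phosphorylates cofilin, was at 42.8, 56.7 and 50.9 CPM against 41.5, 47.3 and 43.6 CPM (-0.17, SE 0.09), and *Ssh3*, a phosphatase gene for cofilin, at 24.7, 18.3 and 25.9 CPM against 22.6, 36.2 and 24.7 CPM (0.25, SE 0.19). *Arpc3*, a subunit gene of the Arp2/3 complex, had -0.15 (SE 0.10). Differences of this size lay within the spread between mice, and RNA levels give no information on the phosphorylation of the proteins.

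Of the 15 genes for AMPA receptor subunits and their auxiliary proteins, 0 had an unadjusted p under 0.05, with a median of 0.05. Of the 12 for NMDA receptors and CaMKII, 1 did (4.93% of all genes did), and the median was 0.00, with 6 positive and 6 negative members. That gene was *Camk2n1*, which encodes an endogenous inhibitor of CaMKII. It was at 783, 828 and 662 CPM in WT_RL mice and at 1038, 962 and 1108 CPM in KO_RL mice (log2 difference 0.46, SE 0.20, adjusted p = 0.956). Its groups did not overlap, as for 3.99% of all genes in that direction. The *Camk2n1* difference was larger in untrained mice, at 0.75, and was 0.10 after original learning. *Gabrg1*, a GABA-A receptor subunit gene, was at 24.4, 28.3 and 27.2 CPM against 21.3, 21.8 and 17.8 CPM (-0.38, SE 0.16). For 15 postsynaptic density scaffolds the median was 0.14, with 2 genes (*Homer1* and *Dlgap2*) higher at an unadjusted p under 0.05 (background 2.47%). Leaving out single mice gave 0 such genes (without WT_RL replicate 2) to 6 (without WT_RL replicate 1), and with WT_RL replicate 1 as the lone WT_RL mouse the median was 0.0066. Among 21 Kv potassium channel genes 2 were higher at that p (background 2.47%), *Kcna5* at 1.78, 2.04 and 1.67 CPM against 6.34, 2.93 and 6.43 CPM, again with KO_RL replicates 1 and 3 high, and *Kcnh3* at 102, 83.4 and 67.9 CPM against 104, 108 and 118 CPM.

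The 78 genes of cytosolic ribosomal proteins had a median log2 difference of -0.11, with 2 positive members, and the 81 genes of oxidative phosphorylation had -0.11, with 6 positive members. In the ribosomal list 1 gene and in the oxidative phosphorylation list 2 genes had an unadjusted p under 0.05, all lower in KO_RL mice, where 2.46% of all genes were lower at that p. Without WT_RL replicate 2 the ribosomal median was 0.00 with 42 of 78 genes positive, and that of oxidative phosphorylation -0.01 with 32 of 81 positive. Without KO_RL replicate 2 both medians were nearer 0, at -0.05 and -0.06. The nuclear noncoding RNA *Meg3* was at 637, 517 and 743 CPM in WT_RL mice and at 666, 1602 and 759 CPM in KO_RL mice, and *Malat1* at 229, 196 and 261 CPM against 266, 433 and 324 CPM. KO_RL replicate 2 was the highest mouse for both. Of the 12 nuclear noncoding RNAs listed, 10 had a positive difference, with a median of 0.35. Among them 2 were higher at an unadjusted p under 0.05 (background 2.47%), and 4 were higher with no overlap (background 3.99%). Without KO_RL replicate 2 the median of that list was 0.08, with 8 positive genes and 1 higher at that p. The astrocyte list of 13 genes had a median of -0.17 with 0 positive members and 2 lower at an unadjusted p under 0.05 (background 2.46%), *Aqp4* and *Slc4a4*. The median was -0.06 without WT_RL replicate 2 and -0.08 without KO_RL replicate 2, with 0 genes at that p in both. All 24 choroid plexus genes had positive log2 differences, yet 0 had an unadjusted p under 0.05, and both the direction and the count turned on single mice. Their median of 0.88 was -0.04 with 9 positive genes without WT_RL replicate 1, and 2.11 with 23 genes higher at that p without WT_RL replicate 3. *Ttr*, the transthyretin gene, was at 12.2, 759 and 7685 CPM in WT_RL mice and at 4541, 1187 and 2430 CPM in KO_RL mice.

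**Figure D4:**
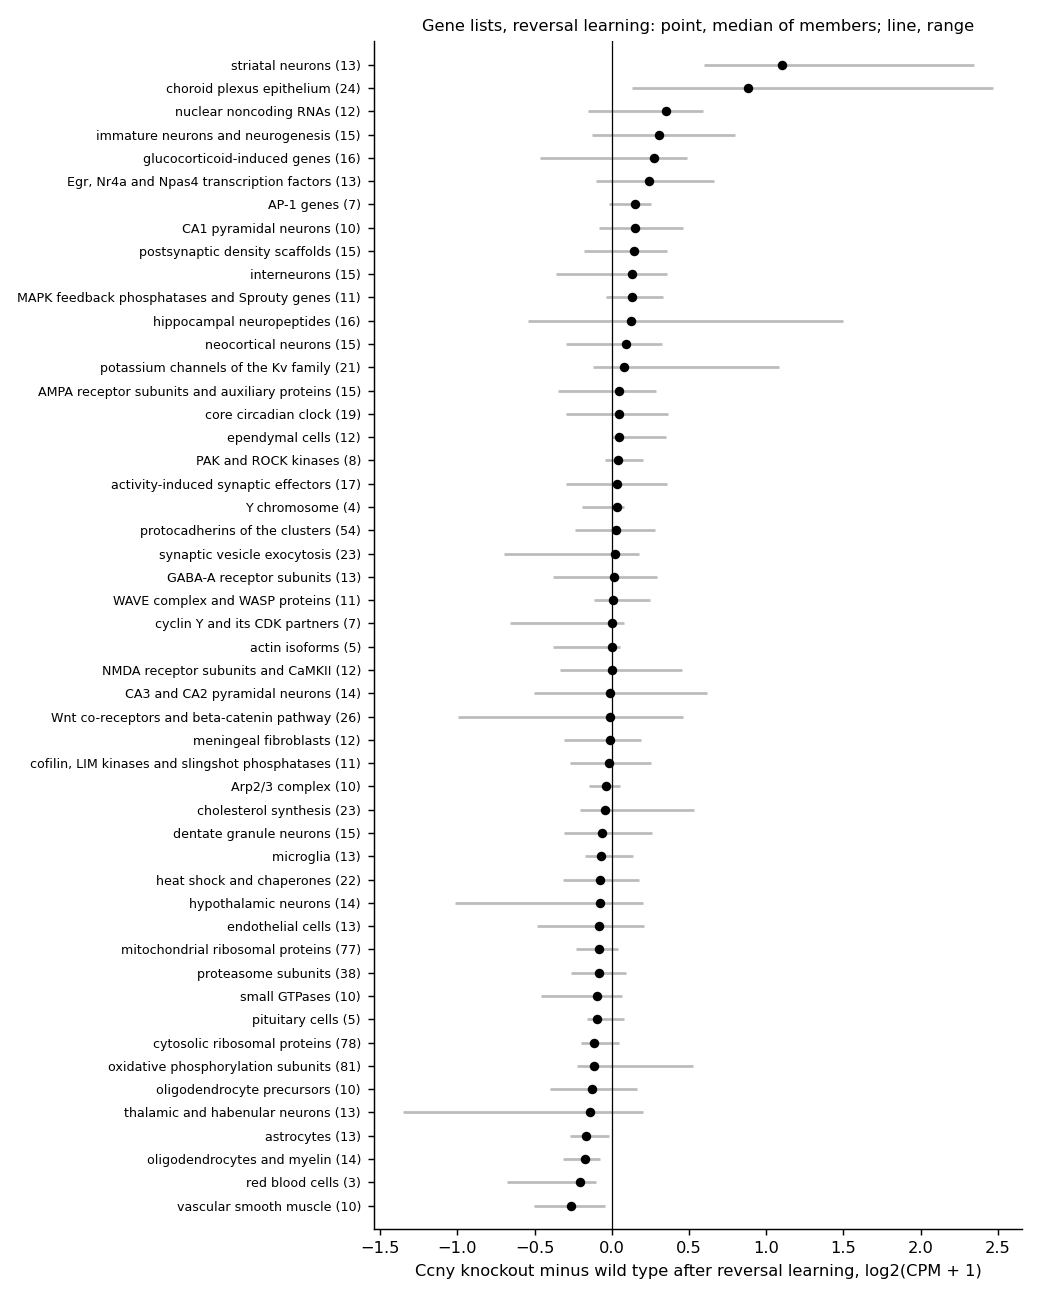
Median (point) and lowest to highest member (line) of the log2 difference KO minus WT after reversal learning (x axis, log2(CPM + 1) scale) for the 50 gene lists, with the number of listed genes in brackets. Striatal (1.10) and choroid plexus (0.88) markers lie farthest to the right, and the 6 actin-related lists lie between -0.09 and 0.04.

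The genotype difference after reversal learning was set against the differences in the other 2 states. No library is shared with those differences, but all p-values rest on the same estimate of spread. In the interaction tests, 0 of 15329 genes (0.0%) had an adjusted p under 0.05 for the genotype effect after reversal learning minus that without training, where 765 (4.99%) had an unadjusted p under 0.05. For reversal minus original learning it was 0 (0.0%), with 1224 (7.98%) at an unadjusted p under 0.05. Of the 37 genes higher in KO_RL mice by the fold criteria, 15 (40.5%) had a positive difference in untrained mice, where 52.2% of all genes did, and 30 (81.1%) after original learning, where 50.2% of all genes did. Of the 63 lower genes, 19 (30.2%) were negative in untrained mice against 47.8% of all genes, and 29 (46.0%) after original learning against 49.8%. Across all genes the log2 differences after reversal learning had a Pearson correlation of -0.257 with those in untrained mice and of 0.235 with those after original learning. These are correlations across genes, which are not independent replicates.

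Which genes recurred differed between the 2 states. In untrained mice 2 of the 37 higher genes, *Egr1* and *Hif3a*, were also higher at an unadjusted p under 0.05, and 0 were lower. Of the 63 lower genes 1, *Ccny*, was also lower there at that p, while 3 were higher. Of all genes, 2.13% were higher and 1.87% lower at that p. After original learning 5 of the 37, *Actn2*, *Ankrd63*, *Gpr52*, *Pde10a* and *Sp9*, were also higher and 1 was lower. Of the 63, 3 were also lower, *Ccny*, *Heyl* and *Kcng4*, and 0 were higher. The shares of all genes were 9.96% higher and 8.07% lower. *Gpr52*, *Pde10a*, *Sp9* and *Ankrd63* are genes of striatal neurons, and the striatal list was high in at least 1 KO_OL mouse too: its sum ranged from 216 to 697 CPM in KO_OL and from 214 to 221 CPM in WT_OL mice, while it reached 692 CPM in WT_Basal mice. The choroid plexus list stood the other way round in untrained mice, with sums of 1615 to 6924 CPM in WT_Basal and 325 to 1260 CPM in KO_Basal mice. The part of these tissues in which genes recurred was not tested.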

How the data were processed

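RNA of hippocampal tissue was sequenced by the authors as paired reads. The labels name the TruSeq Stranded mRNA kit and the methods the TruSeq RNA Sample Prep Kit, and this difference could not be settled. Per the labels and the methods, reads were aligned to mm10 with STAR 2.5.1, counted on genes with its count module, normalized by the TMM method of edgeR 3.12.1 in R 3.3.0 and deposited as 1 table of log2 values. The methods describe CPM floored at 1, but the deposited log2 values are log2(CPM + 1): back-transformed in this way, 100% of the values came out as whole reads (within 0.02 reads). Differences are on that scale, which understates the change of low genes.

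Groups were taken from the labels, and which mice shared a litter or cage is not given in the sources used here. The log2 values were fitted with limma 3.58.1 in R 4.3.3 (1 mean per group over all 18 libraries, trended variances, 12 residual degrees of freedom), with two-sided tests and Benjamini-Hochberg adjustment over 15329 genes. No gene was dropped and no value imputed. An exact permutation test of 3 mice against 3 cannot give p under 0.1 and was not used. P-values measure the spread between mice within all the groups of the fit.

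The members, the 50 gene lists and the tests were chosen with earlier results of these data known. Named genes were *Ccny*, up to 12 genes in each direction with the smallest unadjusted p among those past 1.5-fold with no overlap between the mice, the actin genes named in the study's text, and the 4 genes of each list with the smallest p. Genes outside this rule are said to have been chosen after their values were seen, or are named within the count of their list. The striatal, thalamic, choroid plexus and other marker lists came from general knowledge. Positions are from the GENCODE annotation of GRCm38 (mm10), which held 14769 of the symbols as listed and 450 more under a newer symbol. Promoters are from RefSeq on GRCm38.p6. Alternatives were other scalings, pseudocounts of 0.25 and 4, filters, voom on recovered reads, library weights (statmod 1.5.0), GC correction, a replicate block and leaving out each mouse of the comparison. The fit was tested on simulated data. Python, numpy, pandas and matplotlib were used for tables and plots.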

Additional observations from a re-analysis of the deposited data

How the results depend on the processing

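Groups of 3 mice limit every comparison. The count of 0 genes with an adjusted p under 0.05 after reversal learning was 1 with GC correction, with and without the replicate block (*Znrf1* both times), and 2 with library weights (*Ccny* and *Znrf1*). The weights did not converge, and with them the counts were 12 in untrained mice, 6887 after original learning and 494 for reversal minus original learning, so these are not read further. Leaving out single mice gave 0 to 59 genes after reversal learning, 0 to 43 for reversal learning minus untrained and 0 to 21 for reversal minus original learning. The 59 came without WT_RL replicate 1, the 43 (all higher) without WT_RL replicate 3 and the 21 (all lower) without WT_RL replicate 1, which also gave 32 for reversal learning minus untrained. With WT_RL replicate 1 as the lone WT_RL mouse, assumed to vary like the other groups and chosen after seeing the data, 2 genes passed, and with KO_RL replicate 2 as the lone KO_RL mouse 0.

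The count of 100 genes past 1.5-fold with an unadjusted p under 0.05 was 177 with a pseudocount of 0.25 and 41 with 4, 197 with voom on recovered reads (107 higher, 90 lower), 167 with library weights, 207 with the ratio of mean CPM, 21 in the 6 libraries alone without moderation, and 78 to 251 when single mice were left out. Without WT_RL replicate 3 it was 251 (225 higher, 26 lower), and without WT_RL replicate 1 it was 189 (57 higher, 132 lower). It was 193 with KO_RL replicate 2 alone and 270 with WT_RL replicate 1 alone. In untrained mice CPM floored at 1 gave 5 genes in place of 3. After original learning the count of 10 was 16 without a variance trend, 6 after quantile normalization and 5 with the replicate block and GC correction. For reversal minus original learning CPM floored at 1 gave 3 in place of 0.

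Replicate numbers are shared between the groups, but WT_RL and KO_RL mice of the same number did not deviate together (r = -0.69, -0.38 and -0.29 over 11005 genes). Over all groups, r between mice of the same number ran from -0.689 to 0.449 for number 1, -0.414 to 0.676 for number 2 and -0.291 to 0.442 for number 3. Deviations from a mean of 3 mice are not independent, so these values do not settle whether the numbers pair the mice. With the replicate block 0 genes had an adjusted p under 0.05 and 96 passed the fold criteria.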
